A study of Homo sapiens with 8 samples.

Results

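Genes for 59 splicing factors and heterogeneous nuclear ribonucleoproteins (hnRNPs) were followed through the lists of N4-acetylcytidine (ac4C) peaks of a cervical carcinoma line with and without the acetyltransferase NAT10. They were taken as a list of gene symbols, among 20056 protein-coding genes of the RefSeq annotation and 9046 gene identifiers with a peak in either list. The data come from NAT10-knockout SiHa cells and from SiHa cells, an established line that carries human papillomavirus. RNA enriched with an ac4C antibody and its input were sequenced as 2 libraries each, labelled as biological replicates, which makes 8 libraries in 4 groups: knockout immunoprecipitated, knockout input, SiHa immunoprecipitated and SiHa input. The sources used here give neither the knocked-out allele nor whether the knockout cells are 1 clone. Each population has 1 deposited peak list. Values by replicate and read counts do not come with it, so depth is unknown and the spread between replicates cannot be set beside any difference. The list whose name carries an added K was read as the knockout list, which no label states in words.

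Pre-mRNA splicing is carried out by the spliceosome. Its U1 and U2 particles mark the ends of an intron, after which the U4/U6.U5 tri-snRNP and the Prp19 complex join to build the catalytic centre. SR proteins, which carry arginine-serine repeats, bind exons and help recruit this machinery, while hnRNPs coat nuclear RNA and often act against exon inclusion. Many of these proteins regulate the splicing of their own transcripts. NAT10 acetylates cytidine in RNA, and ac4C in messenger RNA has been linked to stability and translation.

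The transcript of NAT10 had no knockout peak and 1 SiHa peak, with a deposited p of 5e-37. A knockout peak was likewise missing in 73.0% of all genes with a SiHa peak, and a peak list measures neither the deletion nor the NAT10 level, so this is no check of the labels. The whole knockout list held 4557 peaks in 3726 genes and the whole SiHa list 12924 peaks in 7291 genes. Of 8 epithelial marker genes, 3 had a knockout peak and 4 a SiHa peak, with KRT8 and KRT19 in both lists and no peak in CDKN2A, CDH1 or TP63. Of 8 markers of cells other than epithelium, 5 had a knockout peak and 3 a SiHa peak. Among all protein-coding genes, 14.9% had a knockout peak and 29.2% a SiHa peak. The globin genes HBB and HBA1 and the liver gene ALB had peaks in both lists. HBB had a p listed at 0 in both lists and a knockout fold of 1290, and its 2 peaks in each list were overlapped. ALB had a p of 0.01 in the knockout list and 1e-201 in the SiHa list. The blood cell gene PTPRC and the endothelial gene PECAM1 had a knockout peak alone, with folds of 23.1 and 56.4, both of which belong to a series of repeated fold and p pairs described further on. The largest knockout folds of HBA1, 118, and ALB, 10.3, belonged to that series as well, and the fold of HBB did not. COL1A1, CD3E and CD68 had no peak, and the part of these markers in the results was not tested.

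The listed splicing and hnRNP genes were assigned peaks equally often in both lists, although the knockout list is much the shorter. A knockout peak was assigned to 26 of the 59 genes and a SiHa peak also to 26 (44.1% each, 95% exact binomial interval 31.2 to 57.6%). Among all protein-coding genes, 14.9% had a knockout peak and 29.2% a SiHa peak. The ratio of knockout to SiHa genes was thus 1.00 for the members and 0.511 for the whole lists. There were 31 knockout peaks and 39 SiHa peaks on members, a ratio of 0.795, against 0.353 for all peaks. SRRM2, treated below, is not among the 26 and would make 27 members with a knockout peak. The members were chosen with earlier results of these data known, so their shares beside those of all protein-coding genes are a description. Of 141 other splicing-related genes, described further on, 45 had a knockout peak and 67 a SiHa peak. The intervals given here and below cover the counting of genes or peaks only. In such bulk RNA, fewer cells with a mark and less of it per cell cannot be told apart, and transcript levels were not measured by the files used here.

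The lists shared 13 of their 26 member genes. Thus 13 genes had peaks in both lists, 13 in the knockout list alone and 13 in the SiHa list alone, while 20 had no assigned peak. Of the members with a SiHa peak, 13 of 26 (95% interval 29.9 to 70.1%) had none in the knockout list, and over all SiHa-peak genes this share was 73.0%. Conversely, 13 of the 26 members with a knockout peak had no SiHa peak, close to the 47.1% of all knockout-peak genes. The first share therefore lay below its background and the second near it.

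**Figure D1:**
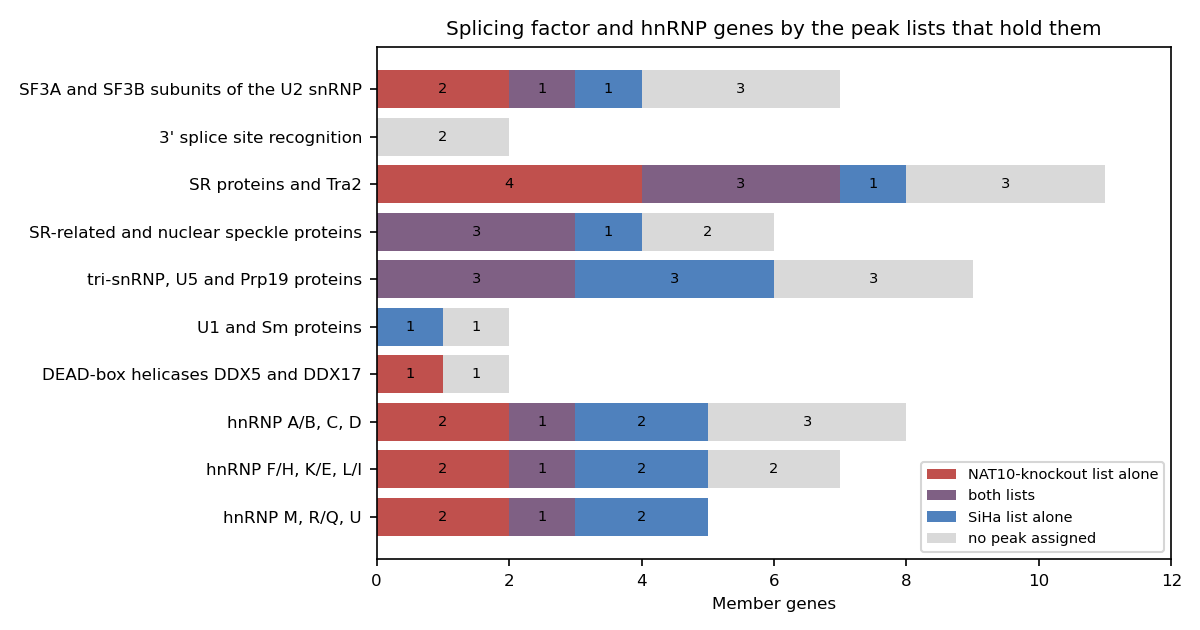
Number of member genes in each functional group (horizontal axis, genes), split by the list that holds their peaks: the NAT10-knockout list alone, both lists, the SiHa list alone, or no peak assigned. The SR group, the largest, has 4 genes of the knockout list alone, and the nuclear speckle and tri-snRNP groups have none. The speckle and tri-snRNP groups hold only 3 knockout-peak genes each. Over all knockout-peak genes, 47.1% are in the knockout list alone. SRRM2, a speckle gene with 4 knockout peaks in its span and no SiHa peak, is drawn as no peak because its identifier missed the naming rule.

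The SF3A and SF3B complexes are parts of the U2 particle that recognise the branch point. Here 3 of 7 subunit genes had a knockout peak and 2 a SiHa peak, where the shares over all protein-coding genes were 14.9% and 29.2%. SF3B1, which contacts the branch point and is recurrently mutated in blood cancers, had a knockout peak alone, with 181 bases in 2 blocks on chromosome 2 between 197392449 and 197393139, a fold enrichment of 7.26 and a p of 1.6e-13 as given by the authors. SF3A2 had 2 knockout peaks and no SiHa peak. The stronger of them, on chromosome 19 from 2246845 to 2247024, had a p of 2.5e-40 at a fold of only 3.88, and the weaker had a false discovery rate of 0.111. SF3A1 had a SiHa peak alone, with a p of 0.00036. SF3B3 was in both lists, with a p of 0.00028 in the knockout list and 1.3e-14 in the SiHa list, at places 3577 bases apart. SF3B2, SF3B4 and SF3A3 had no peak, and neither had U2AF1 and U2AF2, the subunits of the factor that binds the 3′ splice site.

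Among SR proteins and the related Tra2 proteins, the largest group with 11 genes, 7 had a knockout peak and 4 a SiHa peak. The shares over all protein-coding genes were 14.9% and 29.2%. Of the 7 with a knockout peak, 4 had none in SiHa, where the share over all knockout-peak genes was 47.1%. These were SRSF2, SRSF6, SRSF11 and TRA2B. In SRSF2 (ENSG00000161547) the knockout peak covered 180 bases on chromosome 17 from 76734384, 269 bases short of the end of the gene, with a fold of 8.75 and a p of 1e-23. SRSF11 carried a single knockout peak with a fold of 16.8 and a p of 4e-23. TRA2B, which binds GA-rich exonic enhancers, carried 2 knockout peaks with folds of 18.8 and 25.6 and p-values of 1e-22 and 5e-22. They lay close together on chromosome 3, the first from 185917283 to 185917433 and the second in 2 blocks between 185917643 and 185918431. The SRSF6 peak was weak, with a fold of 2.01 and a p of 0.0018. Thus 3 of these 4 genes had strong knockout peaks and SRSF6 a weak one.

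Another 3 SR-type genes, SRSF4, SRSF5 and TRA2A, were in both lists. SRSF4 had a knockout peak with a p of 1e-24 and a SiHa peak with a p of 3.2e-19 near the end of the gene, and a second, weak SiHa peak with a p of 0.0015. SRSF5 had a p of 7.9e-22 in the knockout list and 3.2e-63 in the SiHa list. In TRA2A the p-values were 1.5e-06 in the knockout list and 0.00013 in the SiHa list. SRSF10 had a SiHa peak alone, with a p of 3.2e-05. No peak was assigned to SRSF1, SRSF3 or SRSF7.

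Among the genes for proteins of the nuclear speckles, where splicing factors are stored, SON stood out for its number of SiHa peaks. SON, a large scaffold protein of the speckle, had 2 knockout peaks and 6 SiHa peaks, the most SiHa peaks of any member. The knockout peaks had p-values of 3.2e-51 and 0.00018, and those of the SiHa peaks ran from 1e-104 to 0.00036. RBM25 and RBM39, RNA-binding regulators that act with the U1 particle and U2AF, had 1 peak in each list. For RBM39 the p-values were 6.3e-23 in the knockout list, at a fold of 2.01, and 2.5e-16 in the SiHa list. For RBM25 they were 6.9e-07 in the knockout list, at a fold of 28.2, and 7.9e-10 in the SiHa list. LUC7L3, a relative of the yeast U1 protein Luc7, had 2 SiHa peaks and no knockout peak. Its stronger peak, with a p of 2e-53, joined 5 blocks with 630 bases in all.

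SRRM2, another SR-related speckle protein, could not be placed by the naming rule. Its identifier ENSG00000167978 had 5 knockout peaks, but only 82.0% of their bases lay in the RefSeq span of SRRM2, and the rule asks for 90%. The other peak lies just past the end of the span. The 4 knockout peaks inside the span had folds of 3.35, 1.27, 2.71 and 10.7, the last with a p of 1.6e-51 and 150 bases short of the end of the gene. No SiHa peak lay in this span or carried this identifier. With SRRM2 counted by span, 27 members had a knockout peak and 14 were in the knockout list alone. SRRM1 had no peak.

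Of 9 genes for proteins of the tri-snRNP, the U5 particle and the Prp19 complex, 3 had a knockout peak and 6 a SiHa peak, close to the ratio of 0.511 of the whole lists. Over all protein-coding genes, 14.9% had a knockout peak and 29.2% a SiHa peak. None of the 3 genes with a knockout peak was in the knockout list alone. The share over all knockout-peak genes was 47.1%, and 3 genes are a small count. PRPF3 and PRPF4, components of the U4/U6 particle, and PRPF19, a ubiquitin ligase, had SiHa peaks alone, with p-values of 0.0063, 1e-11 and 1.3e-23. PRPF4B, a kinase named PRP4K in RefSeq, had 1 knockout peak with a p of 0.0039 and 2 SiHa peaks with p-values of 6.3e-38 and 6.3e-26. DDX23, the U5 helicase, had a weak knockout peak, with a p of 0.00042, and a wide SiHa peak of 809 bases with a p of 1e-109. PRPF38B had 2 knockout peaks and 1 SiHa peak of 540 bases, with a p of 1e-269. PRPF6, PRPF8 and SNRNP200 had no peak. Differences between the functional groups were not tested.

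Of the remaining spliceosome genes, SNRPD2, a protein of the Sm ring, had 1 SiHa peak and none in the knockout list. This peak on chromosome 19 joined 4 blocks between 45688476 and 45691440, with 331 bases and a p of 1e-180, the strongest peak of the SiHa list alone among the members. SNRNP70, a protein of the U1 particle, had no peak. The RNA helicase DDX5 was in the knockout list alone (fold 12.8, p of 1.3e-05), and its paralogue DDX17 had no peak.

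The hnRNP genes were divided evenly. Of 20 such genes, PTBP1 and PCBP2 included, the 3 hnRNP groups each had 3 genes with a knockout peak and 3 with a SiHa peak. Each held 2 genes of the knockout list alone, 1 of both lists and 2 of the SiHa list alone. For comparison, 14.9% of all protein-coding genes had a knockout peak and 29.2% a SiHa peak. Over all genes, 47.1% of those with a knockout peak had no SiHa peak. Conversely, 73.0% of those with a SiHa peak had no knockout peak. These hnRNP counts are small, and their difference from the shares over all genes was not tested. The knockout list alone held HNRNPC, HNRNPDL, PCBP2, PTBP1, HNRNPM and HNRNPUL2. The SiHa list alone held HNRNPA3, HNRNPD, HNRNPH3, HNRNPL, HNRNPR and HNRNPU. HNRNPA0, HNRNPF and SYNCRIP were in both.

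PTBP1, which binds pyrimidine tracts and represses exons, had the smallest knockout p of all members in 1 of its 2 peaks. The peaks lay on chromosome 19 from 804181 to 804330 and from 806371 to 806641, with folds of 18.7 and 31.1 and p-values of 4e-26 and 4e-53. HNRNPDL (ENSG00000152795) had the highest fold of all members, 167, with a p of 3.2e-41, at chromosome 4 from 82429660 to 82429840, 622 bases from the start of the gene. HNRNPUL2 followed among the hnRNP genes with a fold of 69.2. A readthrough transcript into the neighbouring gene covers the same peak, which could belong to either. HNRNPC, which binds uridine tracts, HNRNPM and PCBP2, which binds cytidine-rich RNA, had low folds of 3.20, 5.36 and 2.35, and the PCBP2 peak had a false discovery rate of 0.0776.

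Among hnRNP genes of the SiHa list alone, HNRNPU, a scaffold protein of chromatin and RNA, had 3 peaks, with p-values of 7.1e-10, 1.3e-25 and 2.4e-07. HNRNPL, which binds CA repeats, had a p of 1.3e-12, and HNRNPA3 had a p of 4.3e-09. HNRNPD, HNRNPH3 and HNRNPR had weak peaks, with p-values of 6e-05, 0.0001 and 1.5e-05. HNRNPA1, HNRNPA2B1, HNRNPAB, HNRNPH1 and HNRNPK had no peak in either list. Several hnRNP genes have processed copies elsewhere in the genome, and the sources used here do not say how reads that map to more than 1 place were treated.

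**Figure D2:**
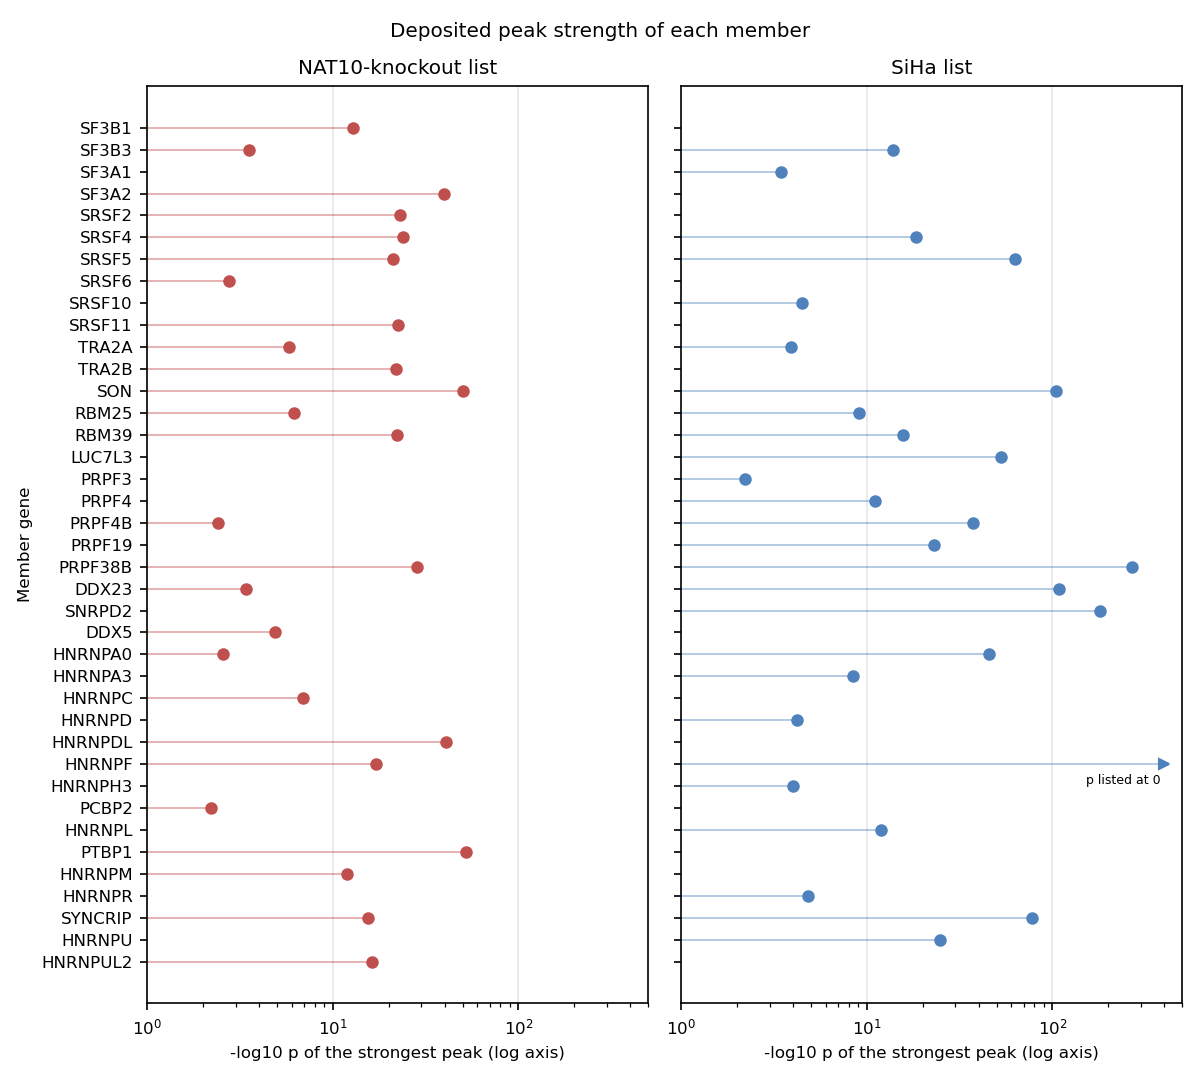
Strength of the strongest peak of each member with a peak, as the authors' −log10 p on a log axis, in the NAT10-knockout list (left) and in the SiHa list (right). A missing point means no peak, and the triangle, set at the edge of the scale, marks HNRNPF, whose SiHa p is listed at 0. SRRM2, whose identifier missed the naming rule, is not drawn. Its strongest knockout peak has a −log10 p of 50.8. The SiHa points reach above 100 for SON, PRPF38B, DDX23 and SNRPD2, and no knockout point does.

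Members in both lists had stronger SiHa peaks than those of the SiHa list alone. The median of the strongest −log10 p of a gene was 45.3 for the 13 genes in both lists and 8.37 for the 13 genes of the SiHa list alone. In the knockout list the corresponding medians were 15.4 for genes in both lists and 16.2 for genes of the knockout list alone. The genes in both lists had 23 SiHa peaks and those of the SiHa list alone 16, so the strongest was taken from unequal numbers. Over single SiHa peaks the median −log10 p was 25.2 and 7.80. The same values over all genes of these classes were not computed. These values come from the lists that define the classes and are given as a description.

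Genes in both lists mostly had their peaks at different positions. Of the 13 genes, 4 had a knockout peak that shared bases with a SiHa peak on the same strand (30.8%, 9.09 to 61.4%), and over all genes in both lists the share was 39.5%. Counted by peaks, 4 of 31 knockout peaks (12.9%, 3.63 to 29.8%) and 4 of 39 SiHa peaks (10.3%, 2.87 to 24.2%) were overlapped, against 19.2% and 6.76% of all peaks of the lists. Both backgrounds lay inside the members' intervals. When a member counted as found again only with an overlapped peak, 84.6% (65.1 to 95.6%) of the members with a SiHa peak were not found again, near the 89.3% of all SiHa-peak genes. The lower share of members absent from the knockout list was thus seen by gene and not by position.

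The overlapping genes differed in how much was shared. In SON the knockout peak at chromosome 21, 33554422 to 33554631, lay wholly within a SiHa peak of 240 bases and shared 210 bases with it. It was the strongest knockout peak of the gene, but the SiHa peak it met had a p of 7.9e-12 and was not the strongest one. In HNRNPF, which binds guanine-rich RNA, the knockout peak of 121 bases lay within a SiHa peak of 1105 bases on chromosome 10 from 43386810 to 43387914, the widest of all member peaks. In SYNCRIP, also known as hnRNP Q, 91 bases were shared near the start of the gene, between a knockout peak with a p of 4e-16 and a SiHa peak with a p of 1e-53. Its strongest SiHa peak, with a p of 1e-78, lay towards the other end of the gene and had no counterpart. In PRPF38B only 31 bases were shared, at the edge of the 540-base SiHa peak. The other knockout peak of PRPF38B, with a fold of 118, lay 1738 bases away.

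In the other 9 genes the smallest distance between blocks of the 2 lists ran from 29 to 17820 bases, with a median of 3577. SRSF4 and SRSF5 were the close cases, each with 29 bases between the knockout and the SiHa peak. In SRSF5 the knockout peak ran from 69770114 to 69770293 and the SiHa peak from 69769845 to 69770084 on chromosome 14. In SRSF4 the knockout peak ran from 29148941 to 29149090 and the SiHa peak from 29148731 to 29148911 on chromosome 1. The remaining 7 genes had at least 1553 bases between the lists, introns included, with RBM25, PRPF4B and RBM39 at 13416, 16948 and 17820 bases.

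**Figure D3:**
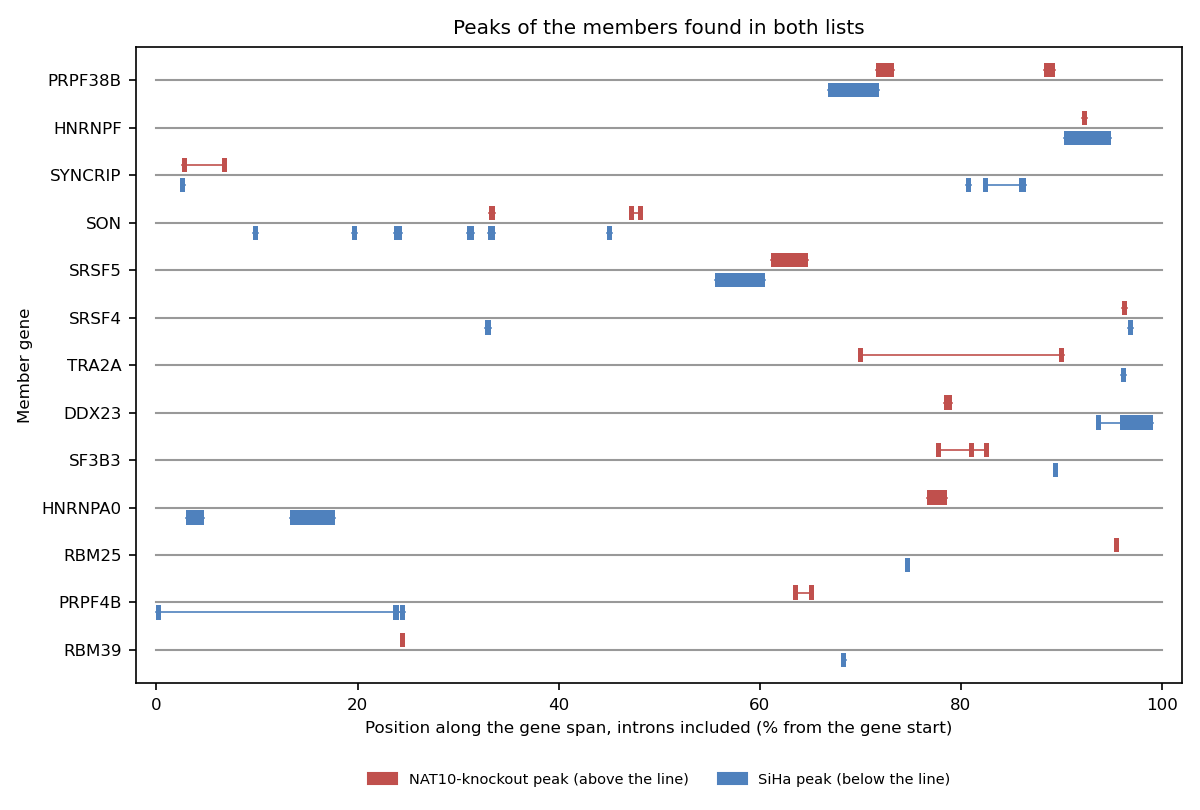
Peaks of the 13 members found in both lists, along the gene span from start to end (horizontal axis, percent of the span, introns included). Red blocks above each line are NAT10-knockout peaks and blue blocks below it SiHa peaks, blocks of 1 peak are joined by a thin line, and the narrowest blocks are widened to stay visible. Genes are ordered by the smallest distance between the lists: the top 4 overlap, SRSF5 and SRSF4 come within 29 bases, and the others lie apart.

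Where members' peaks lay along the gene differed somewhat between the lists. The median midpoint of the knockout peaks was at 78.7% of the gene span, against 77.4% for the knockout peaks of all named protein-coding genes. For SiHa peaks it was 68.4% in members and 84.0% in all named protein-coding genes. In the first 25% of the span lay 3 of 31 knockout peaks (9.68%) and 12 of 39 SiHa peaks (30.8%) of members. Over all named protein-coding genes these were 14.3% of the knockout peaks and 1395 of 10772 SiHa peaks. In the last 25% of the span lay 58.1% of the members' knockout peaks and 38.5% of their SiHa peaks, against 52.5% of knockout peaks and 59.8% of SiHa peaks over all named protein-coding genes. The knockout peaks of members thus lay near the background at both ends, and the SiHa peaks lay earlier than it. The 12 early SiHa peaks belonged to SON, PRPF4B, SYNCRIP, HNRNPA0, HNRNPU, SRSF10, PRPF3 and PRPF19, so several shared a gene, and no test was made. Spans include introns, and no exon annotation was used here.

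Only SiHa peaks reached the annotated start of a member gene. The peak of PRPF4B began 3 bases before the start that RefSeq gives, with blocks of 451 bases in all up to 4031839 on chromosome 6. A peak of HNRNPU, with 241 bases from 244864320 to 244864560 on chromosome 1, extended 17 bases upstream of the annotated start. The SiHa peak of PRPF3 began 38 bases inside its gene. Neither PRPF4B nor HNRNPU had a knockout peak at the start. The sequences below show where these 2 peaks meet the gene starts. They are RefSeq promoter sequence of build GRCh38.p14, written 5′ to 3′ on the strand of the gene, with the last 60 bases before the annotated start and the first 30 after it. Capitals mark the bases that the peak covers.
PRPF4B, chr6:4021240-4021329, plus strand: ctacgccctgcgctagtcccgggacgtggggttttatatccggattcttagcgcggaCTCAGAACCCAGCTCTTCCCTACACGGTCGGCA
HNRNPU, chr1:244864514-244864603, minus strand: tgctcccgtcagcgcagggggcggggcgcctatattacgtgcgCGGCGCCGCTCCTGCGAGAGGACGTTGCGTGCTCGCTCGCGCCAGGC

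Both genes have 19 cytidines in the first 50 transcribed bases, all of which the peaks cover. Whether this count differs from that of other genes was not tested. Cytidines spaced regularly, with any other bases between them, have been described around ac4C, and the motif CNNCNNCNNC was searched in those 50 bases on the transcribed strand alone. HNRNPU held it 2 times and PRPF4B not at all, and 26.7% of the 35116 RefSeq promoters held it in the same window. Such a match is a description of the letters and not a site of acetylation.

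In the knockout list the median fold was 7.26 over the 31 member peaks, with a 95% order-statistic interval of 3.33 to 14.4 that covers peaks only, and 12.8 over the whole list, which lies inside it. The 4 knockout peaks in the span of SRRM2, with folds from 1.27 to 10.7, are not among these 31. The median −log10 p was 15.4 in members and 5.45 in the whole list. A −log10 p above 8 was reached by 61.3% of the members' knockout peaks and 35.8% of all knockout peaks. The false discovery rate exceeded 0.05 in 3 of the 31 member peaks (9.68%, 2.04 to 25.8%), those of SF3A2, PCBP2 and HNRNPA0, and in 1141 of the 4557 peaks of the whole list.

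Many knockout peaks share a fixed relation of fold and p. Their folds are whole multiples of a step of 2.56 within rounding, and p follows the multiple closely, which gives a series of repeated pairs. This series held 45.6% of all knockout peaks and 5 of the 31 member peaks (16.1%, 5.45 to 33.7%). These 5 were the peaks of HNRNPDL, HNRNPUL2, RBM25 and HNRNPA0 and the second peak of PRPF38B, and they include the 3 highest folds of the members. Off the series the median fold was 5.25 in members (3.20 to 11.1) and 7.69 in the whole list, again inside the interval. The fold of HNRNPA0 on the series, 12.8, had a false discovery rate of 0.525, so folds on and off the series do not rank peaks alike.

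**Figure D4:**
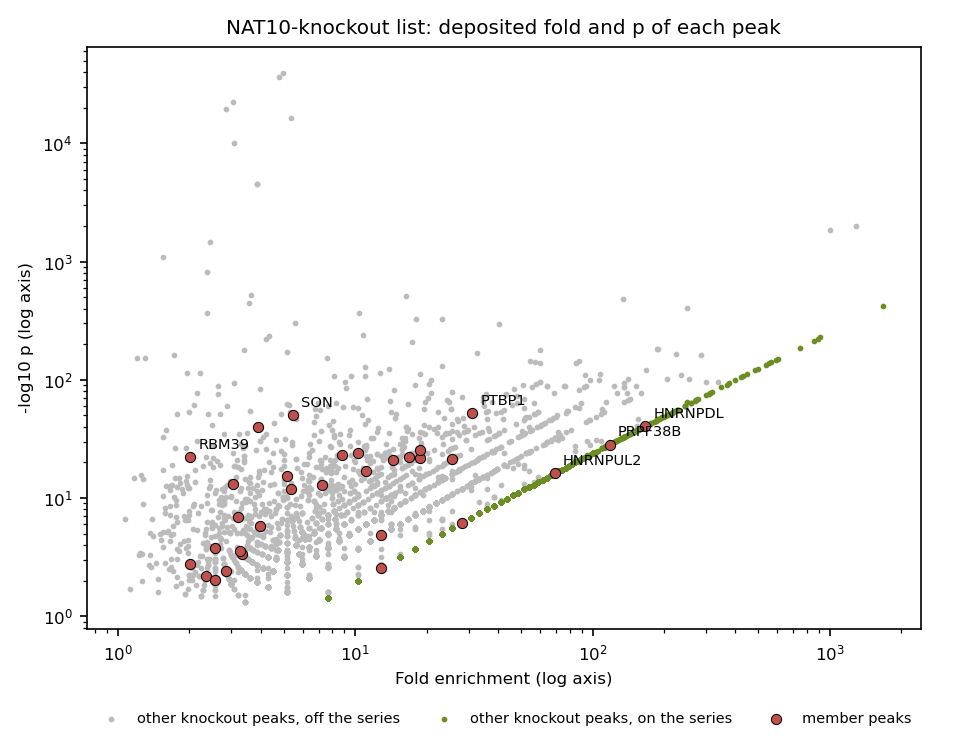
Each peak of the NAT10-knockout list by its deposited fold enrichment (horizontal) and −log10 p (vertical), both on log axes, with member peaks in red. Most member peaks lie above the green points of the repeated series, at folds from 2.01 to 31.1, and the members with the highest folds, HNRNPDL, PRPF38B and HNRNPUL2, lie on it. The 4 knockout peaks in the span of SRRM2, with folds from 1.27 to 10.7, are drawn among the other peaks off the series.

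In SiHa cells the members' peaks had a median −log10 p of 11.9 (7.24 to 36.6), against 6.05 for the whole list. The share above 8 was 64.1% in members and 43.1% in the whole list. Peak widths did not set the members apart. The median covered length was 180 bases for members' knockout peaks and 181 for their SiHa peaks, as for all peaks of the same lists. No knockout peak of a member covered more than 300 bases, and 7 SiHa peaks did, but the share of all peaks above this length was not computed. The upper quartile was 255 bases for members' SiHa peaks and 271 for all SiHa peaks. Peaks split into blocks, which span a junction or another gap, made up 7 of 31 knockout peaks (22.6%, 9.59 to 41.1%) and 7 of 39 SiHa peaks (17.9%, 7.54 to 33.5%), against 31.3% and 25.2% of the whole lists. A single peak was the rule, for 21 of the 26 members in the knockout list and 19 of the 26 in the SiHa list.

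A further 141 genes of the spliceosome and of related RNA-binding proteins were set beside the members. Of these, 45 had a knockout peak and 67 a SiHa peak: 17 were in the knockout list alone, 28 in both and 39 in the SiHa list alone. Among all protein-coding genes, 14.9% had a knockout peak and 29.2% a SiHa peak. Of all knockout-peak genes, 47.1% had no SiHa peak. Of those with a SiHa peak, 58.2% (45.5 to 70.2%) had no knockout peak, between the members' 13 of 26 and the 73.0% of all SiHa-peak genes. An overlapped SiHa peak was found in 5 of the 28 genes in both lists, and in 39.5% of all genes in both lists.

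In the knockout list alone, the highest folds of these genes were 94.9 in CELF1, a regulator that binds GU-rich RNA, 35.9 in EIF4A3, the helicase of the exon junction complex, 25.4 in CIRBP, a cold-inducible RNA-binding protein, and 12.8 in CWC25, which tied with PCBP4 and ESRP2 and was named by alphabetical order. The folds of CELF1, EIF4A3 and CWC25 belonged to the repeated series. The CWC25 peak was weak, with a p of 0.0028, the same fold and p as the HNRNPA0 peak whose false discovery rate was 0.525. In both lists, the smallest SiHa p-values were those of RBM15 and SCAF4, listed at 0, CWC22 with 1e-193 and PCBP1 with 1e-173. In the SiHa list alone they were those of PPIG with 1e-274, MBNL2 with 1e-201, the SR protein kinase SRPK2 with 1e-170 and TIAL1 with 1e-167. PCBP1, the close relative of PCBP2, thus had peaks in both lists, where PCBP2 had a knockout peak alone.

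**Figure D5:**
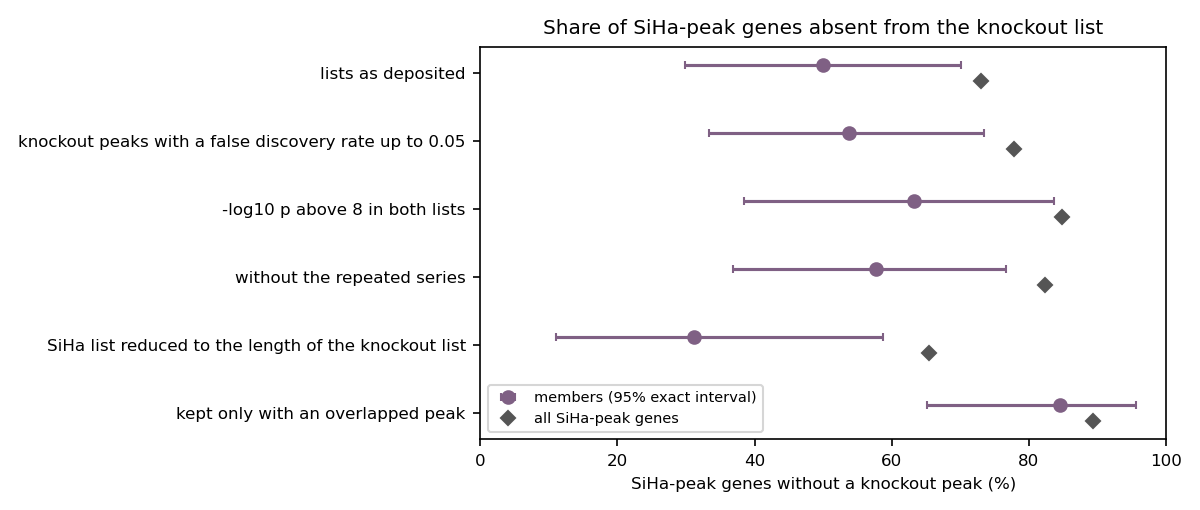
Share of genes with a SiHa peak that have no knockout peak (horizontal axis, percent), for the members (circles, with 95% exact binomial intervals) and for all SiHa-peak genes (diamonds), with the lists as deposited and under other settings. The members lie below all genes in each row, and in the bottom row, where position counts, the diamond is inside the members' interval.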

How the data were processed

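Immunoprecipitated and input RNA of NAT10-knockout SiHa cells and SiHa cells was sequenced after a stranded mRNA kit, per the labels' protocols. FastQC 0.11.7 and build GRCh38 (hg38) are named in the submitters' processing notes, while an aligner, a peak caller and a way of combining libraries are named nowhere in the sources used here. The authors' deposited peak lists hold 1 p-value per peak, under the heading score per the file headers. Besides it, the deposited knockout list has a fold enrichment, which is a ratio to something the headers leave unnamed, and scores that are log10 values of p and of the false discovery rate. These values served to describe or filter peaks within a list.

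From the knockout list 2 peaks and from the SiHa list 3 peaks off the assembled chromosomes and 1 repeated line were left out. Positions are 1-based. Peaks overlapped when same-strand blocks shared at least 1 base. The files do not pair identifiers with names, and the annotation table used here lists no Ensembl identifier. A name was given when at least 90% of an identifier's peak bases lay in 1 RefSeq protein-coding or long noncoding gene span on the same strand, and no other identifier claimed it. RefSeq strands came from the promoter table, and for the 6 members not in it strand was ignored. Readthrough and unnamed LOC spans yielded to named genes. In all, 7541 of 9046 identifiers (83.4%) were named. All members are described in the text, and of the other splicing genes up to 4 of each class, by SiHa p or knockout fold. The members and gene lists were chosen with earlier results of these data known. No test between conditions was possible, and shares have exact Clopper-Pearson 95% intervals and medians order-statistic ones. The overlap code was tested on simulated peaks. Python 3.11.15, pandas 2.3.3 and scipy 1.17.1 were used.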

Additional observations from a re-analysis of the deposited data

How the results depend on the processing

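No paired analysis was possible because the files hold 1 peak list for each population and no values by replicate, and for the same reason no replicate could be left out. Of 62 recomputed values over the alternatives, 57 stayed within 1.5 times the count as deposited or within its 95% interval, and 5 moved beyond it. Several of the 57 could not change, such as SiHa counts, strengths and widths when only the knockout list was filtered. The knockout count was likewise fixed when only the SiHa list was reduced, so the tally does not measure how stable the results are. With only peaks of −log10 p above 8 in both lists, 16 members had a knockout peak and 7 were in both lists. With the SiHa list reduced to the length of the knockout list, 16 members had a SiHa peak and 5 were in the SiHa list alone. When a gene counted as found again only with an overlapped peak, the share not found again was 84.6%. In these first 2 settings fewer peaks were used by construction. The share of SiHa-peak members without a knockout peak was 53.8% with knockout peaks up to a false discovery rate of 0.05 (77.9% of all SiHa-peak genes), 63.2% above −log10 p of 8 (84.8%), 57.7% without the repeated series (82.3%) and 31.2% with the reduced SiHa list (65.5%). Limiting the background to named protein-coding genes could not change the members' 13 of 26 and gave a background of 70.7%. The members' share stayed at 13 of 26 when peaks were assigned by span whatever their identifier, on the same strand or, as an alternative added after seeing the data, on either strand. The naming by span alone, planned as an alternative, is the naming used throughout. Depth is unknown, so a missing peak does not show that ac4C is absent.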
